A study of Mus musculus with 4 samples.

Results

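The genes described here are the 3 TGF-beta ligands (Tgfb1, Tgfb2 and Tgfb3), their receptors (Tgfbr1, Tgfbr2 and Tgfbr3), the signal transducers Smad2, Smad3 and Smad4, and Pmepa1, a feedback target of the pathway. Each is represented by all probe sets that the platform annotation assigns to its symbol alone, and values after treatment were compared with untreated values within each array date. This gave 10 genes and 21 probe sets, of 12394 genes and 22690 probe sets in the table. All 21 had a value on every array, and 18 of them, with at least 1 for each gene, were bright enough to be tested (mean intensity of at least 101). TGF-beta is secreted as a latent dimer that must be freed before it binds Tgfbr2, which then activates Tgfbr1. The activated receptor phosphorylates Smad2 and Smad3, and these enter the nucleus with Smad4 to switch genes on or off. In colon epithelium the pathway restrains growth, and TGFBR2 and SMAD4 are often mutated in human colorectal cancer.

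The arrays came from YAMC cells, a line of colon epithelial cells of young adult mice that is immortalised by a heat-labile viral antigen, with total RNA hybridised to mouse 430A arrays. There were 2 untreated arrays and 2 arrays of cells given, for 16 h, the conditioned medium of the probiotic bacterium Lactobacillus GG (LGG). By their titles the arrays form 2 pairs, each of 1 untreated and 1 treated array with the same date. The dates are called 1 and 2 here, and what the dates mark is not given in the sources used here. Cells in unconditioned medium were not analysed here, so a response to bacterial products cannot be told apart from a response to the medium. Whether separate cultures were used is not labelled, so p-values measure the spread between these arrays, which may be technical.

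The deposited intensities had trimmed means between 499.3 and 513.1 per array, and precision is limited by how few arrays there were. Over all 6952 genes tested, the median fitted log2 change was 0.03. Of 10 markers of epithelial cells, 3 (Krt8, Krt18 and Krt19) were above the limit for testing on average, while Epcam measured 6 to 9, Cdh1 8.7 to 41.8 and Vil1 1.7 to 10.5, all dimmer than that on every array. Of 8 fibroblast markers with a value on all arrays, 4 were above it, with Col1a1 between 6569 and 10156. The summed intensity of these 8 markers was 20241 and 17595 without treatment and 14887 and 13370 with it. Most of that difference was Dcn: the other 7 summed to 12507 and 9218 against 10802 and 8896, with overlapping groups. Col1a1, which made up most of the sum of those 7, had a log2 change of -0.04. Of the 4 bright markers, the others were lower on both treated arrays: Dcn (-0.91), Col1a2 (-0.59) and Pdgfra (-0.44). Their limma adjusted p-values were 0.00138, 0.129 and 0.29, and the median log2 change of the 4 was -0.51. Fap and Pdgfrb, both dim, were higher on both treated arrays, and Lum and Thy1, also dim, had overlapping groups. The epithelial markers summed to 2475 and 3344 against 3432 and 2921. Of the 3 bright ones, Krt19 was lower on both treated arrays (log2 change -0.72, limma adjusted p = 0.0691). Krt18 was higher on both (0.66, limma adjusted p = 0.137), and Krt8 had overlapping groups (0.23). The part of other cell types in the values described here was not tested. In bulk RNA, fewer cells of a type and less RNA per cell cannot be told apart. As for RNA integrity, the 3'/5' Gapdh probe ratio of dates 1 and 2 was 0.805 and 0.784 without treatment and 0.931 and 0.768 with it.

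The sequences just upstream of Tgfbr2 and Tgfb1 are shown because Tgfbr2 is the gene of this set that passed the test and Tgfb1 is the one with the largest difference in the opposite direction. Both are the 250 bases before the annotated start in RefSeq on GRCm38.p6, 5′ to 3′ along the strand of the gene. Capitals mark CAGAC, a SMAD box, in the first and GGGCGG, a GC box, in the second, on either strand, where it reads GTCTG or CCGCCC.

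Tgfbr2 (chr9:116175364-116175613, minus strand): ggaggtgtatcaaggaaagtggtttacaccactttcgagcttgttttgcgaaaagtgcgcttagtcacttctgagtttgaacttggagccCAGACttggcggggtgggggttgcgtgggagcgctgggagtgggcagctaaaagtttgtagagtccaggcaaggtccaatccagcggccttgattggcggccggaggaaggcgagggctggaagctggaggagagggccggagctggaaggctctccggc

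Tgfb1 (chr7:25686752-25687001, plus strand): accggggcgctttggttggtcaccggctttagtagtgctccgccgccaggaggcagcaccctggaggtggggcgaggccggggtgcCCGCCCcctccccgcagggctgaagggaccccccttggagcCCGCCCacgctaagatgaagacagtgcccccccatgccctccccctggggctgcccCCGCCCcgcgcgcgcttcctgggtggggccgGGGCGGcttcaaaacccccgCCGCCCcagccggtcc

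The Tgfbr2 window held 1 SMAD box and 0 GC boxes, and the Tgfb1 window held 0 SMAD boxes and 5 GC boxes. Neither window held the AP-1 letters TGANTCA or the TATA letters TATAAA. Among 32851 windows of this length, 42.2% held CAGAC, 32.7% GGGCGG, 6.75% TGANTCA and 12.4% TATAAA on either strand. These matches describe letters only and say nothing of binding. Windows were found by symbol for 5 of the 10 genes (Tgfb1, Tgfb2, Tgfbr1, Tgfbr2 and Smad3).

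Treated was compared with untreated on log2(intensity + 25.2) with limma, with date as a block, and p-values were adjusted by the Benjamini-Hochberg method across the 10335 tested probe sets. The brightest probe set stood for its gene. Tgfbr2 fell, 0 genes of the set rose, and the other 9 did not pass the adjusted threshold of 0.05. At an unadjusted p under 0.05 there were 5 lower genes (Tgfb3, Tgfbr2, Tgfbr3, Smad2 and Pmepa1) and 1 higher gene (Tgfb1), where 9.82% of all genes tested were lower and 10.5% higher by that measure. At the adjusted threshold, 3.50% of all genes fell and 3.01% rose. Both treated arrays lay below both untreated arrays for 6 of the 10 genes, against 22.3% of all genes tested, and above them for 2 of 10, against 26.2%. The median log2 change of the 10 genes was -0.53. Their median ratio was -0.33 at date 1 and -0.32 at date 2, while over all genes it was -0.02 and 0.08. The 10 genes were chosen with earlier results of these data known, so these counts and medians are descriptions only. With 2 arrays per group, the smallest two-sided p of an exact permutation that ignores the dates is 0.333. Exchanging labels only within dates, as the blocked fit would require, allows fewer arrangements and so a larger smallest p. With 1 residual and 12.5 prior degrees of freedom, the limma p-values rest mostly on variance shared across genes. A gene's SE and 95% interval can therefore understate how far its own values at the 2 dates differ.

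**Figure D1:**
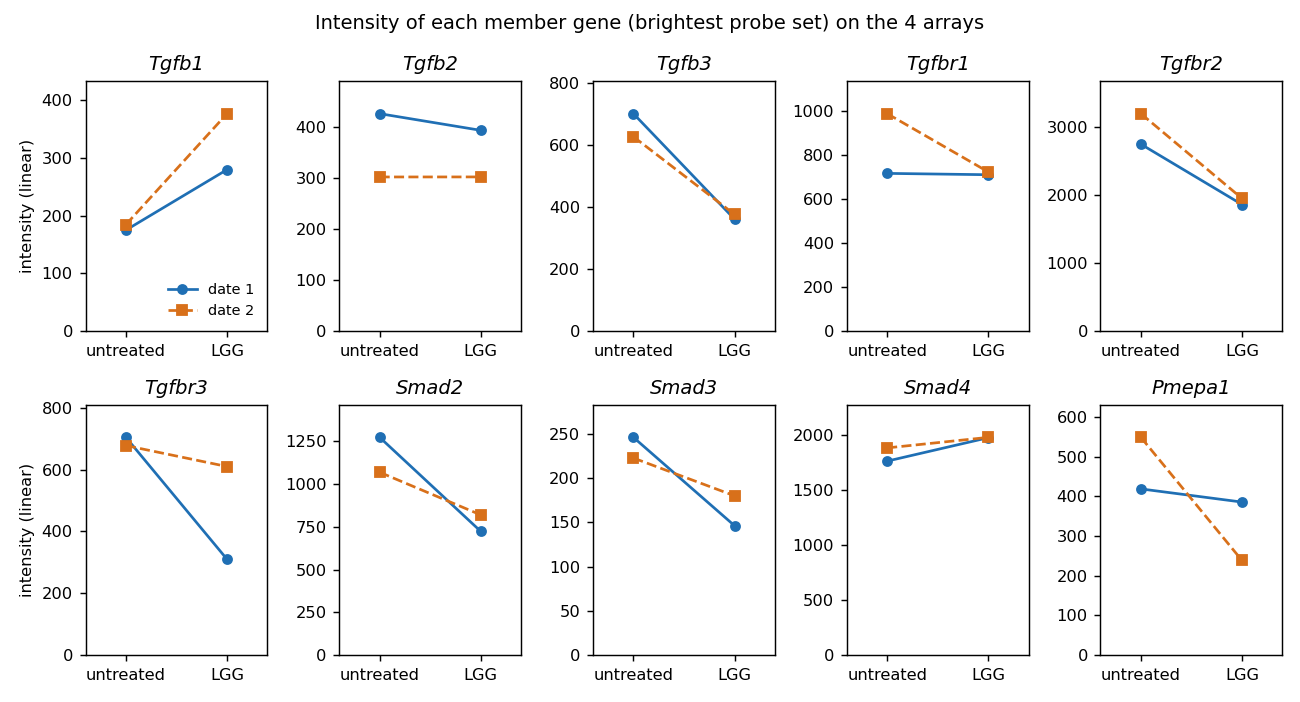
Linear intensity of the brightest probe set of each of the 10 genes on the 4 arrays, with a circle and solid line for date 1 and a square and dashed line for date 2. Each line joins the untreated and the LGG-treated array of 1 date, each vertical axis starts at 0 and has its own range, and Tgfb1 and Smad4 are the genes with both treated values above both untreated values.

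Among the ligands, Tgfb1 and Tgfb3 differed in opposite directions. Tgfb1, the isoform best known for restraining immune cells and epithelial growth, measured 175.1 (date 1) and 184.7 (date 2) untreated and 279.8 and 376.7 treated. Both treated values were above both untreated values. The means were 180 ± 6.79 and 328 ± 68.5 (SD, n = 2 arrays per group). The fitted log2 change was 0.77 ± 0.25 (SE; limma, adjusted p = 0.0929, unadjusted 95% interval 0.23 to 1.32), so the gene did not pass. Within dates, the log2 ratios were 0.61 and 0.94.

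Tgfb3, an isoform important in palate and lung development, was lower on both treated arrays. It measured 701.9 and 627.5 untreated and 361.5 and 376.9 after treatment, so the groups did not overlap and the treated arrays of the 2 dates were close to each other. The fitted log2 change was -0.80 ± 0.23 (limma adjusted p = 0.054, 95% interval -1.30 to -0.31), just outside the threshold. The within-date ratios were -0.91 and -0.70, and with 1 array left out and no date block the fitted change stayed between -0.88 and -0.73.

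Tgfb2, the isoform that needs the co-receptor Tgfbr3 most for binding, had 3 probe sets that did not give the same picture. The brightest, 1423250_a_at, measured 426.8 and 302.6 untreated and 394.1 and 302.7 treated, with overlapping groups and a log2 change of -0.05 (95% interval -0.57 to 0.46). The second, 1450923_at, measured 460.3 and 284 against 367.2 and 132.4, a log2 change of -0.64 (limma adjusted p = 0.18) that was 0.02 with LGG replicate 2 (treated, date 2) left out. The third, 1450922_a_at, measured 388.3 and 276.9 against 252 and 225.2, a log2 change of -0.42 (adjusted p = 0.371). All 3 were brighter at date 1 than at date 2 in both groups, and none passed.

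Of the receptors, Tgfbr2, the ligand-binding kinase, fell. Its brightest probe set, 1426397_at, measured 2751.3 and 3200.6 untreated and 1864 and 1953.3 treated. Every treated value was below every untreated value. The means were 2976 ± 318 and 1909 ± 63.1 (SD, n = 2), a fall of 1.55-fold and a log2 change of -0.63 ± 0.17 (limma adjusted p = 0.0439, 95% interval -1.0 to -0.26), with ratios of -0.56 and -0.71 at dates 1 and 2. The size held with any 1 array left out, at -0.74 to -0.52, but the call did not. The adjusted p was 0.143 without date as a block, 0.053 with quantile normalization, 0.0931 with median scaling and 0.0547 when the filter was raised to 50% of the trimmed mean.

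The other probe sets of Tgfbr2 differed from each other. The second, 1425444_a_at, measured 470 and 391.3 untreated and 260.3 and 693.2 treated, so it was lower at date 1 (log2 ratio -0.79) and higher at date 2 (0.79), and its fitted change was 0.00 (95% interval -0.69 to 0.68). The third, 1422019_at, was too dim to be tested, at 53.1 and 18.3 against 26.1 and 2.4. It was lower at both dates, though its groups overlapped. Its ratios on log2(intensity + 25.2) were -0.61 and -0.66, but at such low values their size depends on the added 25.2. The linear ratios of treated to untreated were 0.492 and 0.131 at dates 1 and 2, against 0.677 and 0.61 for the brightest. When the tested probe sets of each gene were averaged, the log2 change of Tgfbr2 was -0.32 (limma adjusted p = 0.373), and the call therefore rests on the brightest probe set.

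Tgfbr3, the co-receptor betaglycan, which presents ligand to Tgfbr2, measured 704.1 and 677.6 untreated and 309.5 and 609.7 treated. Both treated values were lower, by far the more at date 1. The log2 change was -0.64 ± 0.26 (limma adjusted p = 0.186), with ratios of -1.12 at date 1 and -0.15 at date 2. It was -0.17 with LGG replicate 1 (date 1) left out (adjusted p = 0.688) and -1.10 with LGG replicate 2 (date 2) left out (adjusted p = 0.0405), so 1 array decides its size.

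Tgfbr1, the signalling kinase that phosphorylates the SMADs, measured 718.3 and 990.1 untreated and 712.2 and 724.9 treated with its brightest probe set, 1420895_at. The groups overlapped, and the log2 change was -0.22 (95% interval -0.70 to 0.25). Of its dimmer probe sets, 1420893_a_at measured 139.1 and 139.7 against 50.7 and 188.4, with opposite directions at the 2 dates. The other, 1420894_at, was not bright enough to be tested, at 136.7 and 113.4 against 51.6 and 88.

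The receptor-activated SMADs were lower on both treated arrays. Smad2 measured 1273.9 and 1069.5 untreated and 723.3 and 819.9 treated, with no overlap. Its log2 change was -0.58 ± 0.22 (limma adjusted p = 0.137, 95% interval -1.05 to -0.12), and the ratios were -0.80 at date 1 and -0.37 at date 2. Smad3, which binds DNA directly and carries much of the transcriptional response, measured 246.1 and 222.7 against 146.2 and 180 with its brightest probe set, 1450472_s_at. The log2 change there was -0.47 ± 0.26 (adjusted p = 0.347), also with no overlap.

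The second probe set of Smad3, 1450471_at, measured 155.6 and 200.4 untreated and 8.4 and 145.9 treated. It was lower at both dates, but the size came mostly from the treated array of date 1. Its log2 change of -1.41 ± 0.40 passed (limma adjusted p = 0.0495), while the brighter probe set did not, so Smad3 is not counted among the genes called. Without LGG replicate 1 the change was -0.24 (adjusted p = 0.707), with a pseudocount of 1 it was -2.26 (adjusted p = 0.0601), and without date as a block the adjusted p was 0.348. Averaged over both probe sets, the log2 change of Smad3 was -0.94 (adjusted p = 0.0221).

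Smad4, the common partner of the activated SMADs, did not share the lower values. Its brightest probe set, 1422487_at, measured 1764.8 and 1885.2 untreated and 1978.2 and 1981.1 treated, a log2 change of 0.12 (95% interval -0.27 to 0.51). The second, 1422486_a_at, measured 1457.3 and 1386.3 against 1936.7 and 1770.6, a log2 change of 0.38 (limma adjusted p = 0.278). The third, 1422485_at, measured 1119.2 and 1101.9 against 1017.5 and 1297.2, a log2 change of 0.05. Treated values were above all untreated ones in the brighter pair and overlapped them in the dimmest. None of the 3 passed, and the intervals leave room for a modest difference either way in the brightest and the dimmest.

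**Figure D2:**
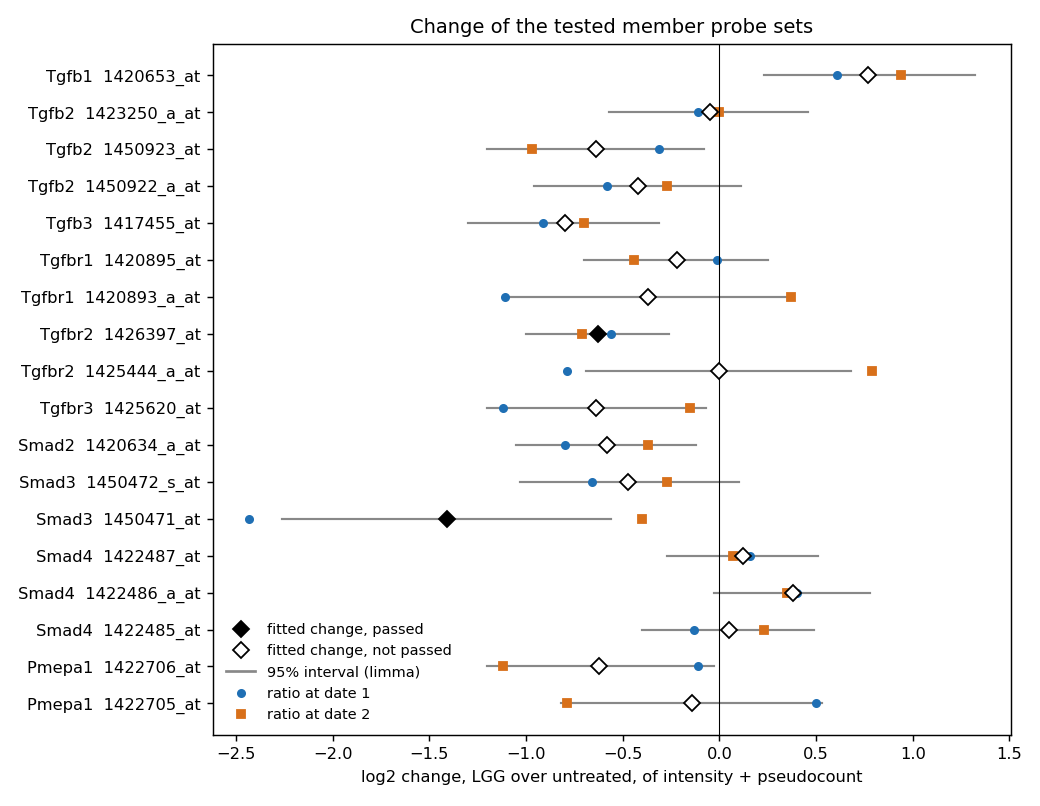
Log2 change of LGG over untreated for the 18 tested probe sets of the 10 genes, on log2(intensity + 25.2), with diamonds for the limma fit, grey lines for its 95% interval, circles for the ratio at date 1 and squares for that at date 2. Filled diamonds mark the probe sets that passed, the brightest of Tgfbr2 and the second of Smad3, and the circle and square stand far apart for Tgfbr1 1420893_a_at, Tgfbr2 1425444_a_at, Smad3 1450471_at and Pmepa1 1422705_at.

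Pmepa1, which TGF-beta induces and whose membrane protein keeps Smad2 and Smad3 from the receptor, varied between dates. Its brightest probe set, 1422706_at, measured 418.4 and 548.3 untreated and 385.2 and 238 treated. Both treated values were lower, nearly all of the difference being at date 2. The log2 change was -0.62 ± 0.27 (limma adjusted p = 0.219), with ratios of -0.11 and -1.12, and it was -0.94 without LGG replicate 1 and -0.30 without LGG replicate 2. The second, 1422705_at, measured 231.1 and 171.4 against 338 and 88.6, higher at date 1 and lower at date 2. The third, 1452295_at, was too dim to be tested, at 99.6 and 90.8 against 61.6 and 37.9.

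Across the 18 tested probe sets, 10 were lower at both dates, 3 higher at both and 5 of opposite sign at the 2 dates. By gene, 7 of the 10 were lower at both dates with their brightest probe set and 2 were higher at both. The 7 include Tgfbr1, with ratios of -0.01 at date 1 and -0.44 at date 2. The matching shares of all genes and probe sets tested were not counted, so these counts are descriptions only. Tgfb2 had a ratio of -0.11 at date 1 and 0.00 at date 2. Tgfb3 and Tgfbr2 had ratios of like size at the 2 dates, Tgfbr3 was mainly low at date 1 and Pmepa1 mainly at date 2. These date-to-date differences could not be tested with 1 array per group and date.

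**Figure D3:**
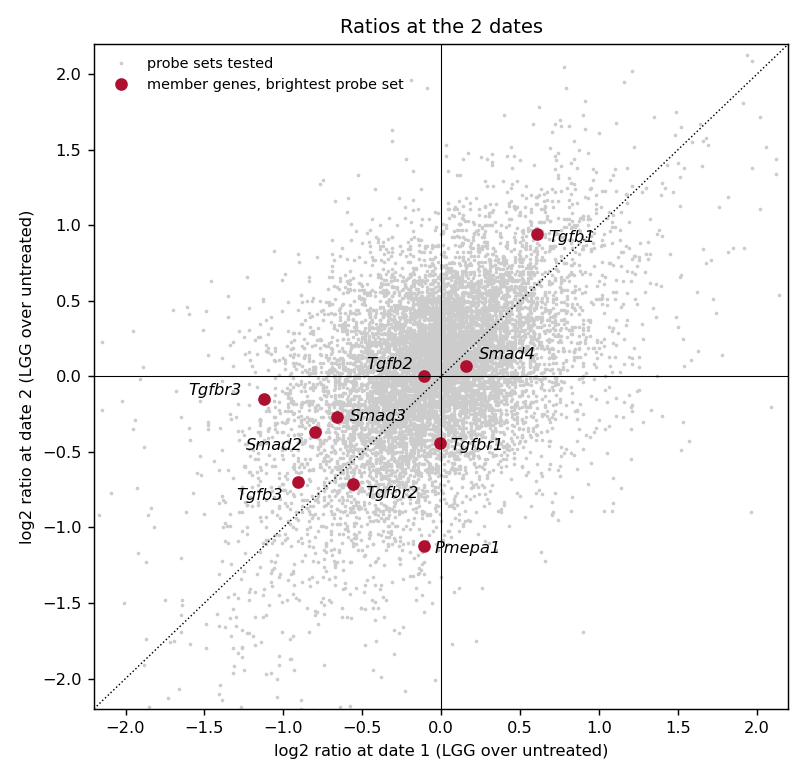
Log2 ratio of LGG over untreated at date 1 (horizontal) against date 2 (vertical), with grey points for the probe sets tested and red points for the brightest probe set of each of the 10 genes. The dotted line marks equal ratios, 48 of the 10335 probe sets lie outside the axes, and Tgfb3 and Tgfbr2 lie low on both axes while Tgfb1 lies high on both.

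The 3 genes with values most like those of Tgfbr2, by Euclidean distance over the 4 arrays in centred log2 values among the other 6951 genes, were Natd1 (distance 0.0125), Recql (0.0416) and Gstz1 (0.0422). Natd1 measured 664.3 and 778.3 untreated and 440.8 and 468.4 treated, with a log2 change of -0.63 ± 0.22 (limma adjusted p = 0.122). Recql, a DNA helicase gene, had a log2 change of -0.66 and Gstz1, an enzyme gene of tyrosine breakdown, of -0.63, and neither passed (limma adjusted p = 0.135 and 0.225). Likeness over 4 arrays is a description of these values and nothing more.

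Genes that hold TGF-beta latent or free it came next. Of 11 tested of 22 in this list, 2 fell, 0 rose and 9 did not pass, with a median of -0.19. Ltbp3, which anchors latent TGF-beta in the matrix, measured 1839.9 and 1568.9 untreated and 840.1 and 712.1 treated. It fell by 1.11 ± 0.20 on the log2 scale (limma adjusted p = 0.00553), by the same -1.11 at each date. Dcn, a small matrix proteoglycan that binds TGF-beta, measured 7734.1 and 8376.2 against 4084.9 and 4473.8. Its log2 change was -0.91 ± 0.13 (limma adjusted p = 0.00138), and it is also 1 of the fibroblast markers. Ltbp1, a relative of Ltbp3, had a log2 change of 0.33, Mmp14 -0.48, Bgn -0.34 and Plat 0.35, none of which passed. For Ltbp3 and Dcn the groups were far apart and the 2 dates alike, although without date as a block Ltbp3 had an adjusted p of 0.0533.

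Feedback inhibitors and accessory proteins of the receptors did not pass in either direction. Of 20 tested of 29, 0 rose and 0 fell by limma, with a median of -0.03. Smad7, the main inhibitory SMAD and a direct TGF-beta target, measured 662.4 and 415.8 untreated and 720.3 and 576.1 treated, with overlapping groups and a log2 change of 0.28 ± 0.23. Skil, a repressor of SMADs that TGF-beta also induces, measured 846.7 and 1394.1 against 1279.3 and 1287.6, again overlapping (0.23). Smad6, the inhibitory SMAD of the BMP branch, had a log2 change of -0.59, Tgif1 -0.48, Usp15 -0.47 and Eng -0.33, with both treated arrays below both untreated arrays in each. With 1 array left out, Smad6 ranged from -0.89 to -0.29, Tgif1 from -0.65 to -0.32 and Eng from -0.52 to -0.15.

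Transcription factors and coactivators that work with SMADs moved in both directions. Of 18 tested of 23, 3 rose, 1 fell and 14 did not pass, with a median of 0.22. Runx1, a SMAD partner in blood and epithelial cells, measured 327.9 and 263.2 untreated and 79.7 and 78.1 treated, a log2 change of -1.62 ± 0.27 (limma adjusted p = 0.0032). Hmga2, a chromatin protein that SMADs induce, measured 213.4 and 227.9 against 544 and 413.1 (1.02 ± 0.25, adjusted p = 0.0257), while its second probe set, at 0.42, did not pass. The coactivator gene Ncoa3 rose by 0.85 (adjusted p = 0.0495). Atf3, a stress factor that Smad3 binds, rose by 1.34 (adjusted p = 0.0414), but its change was 0.42 without LGG replicate 1 and 2.25 without LGG replicate 2. Cbfb (-0.33), E2f5 (0.24), Med15 (0.20) and Yap1 (-0.18) did not pass. The second probe set of Yap1 was lower on both treated arrays and did not pass either (-0.70, limma adjusted p = 0.113).

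In the activin and BMP branches, 1 of 12 genes tested of 19 fell and 0 rose, with a median of -0.24. Bmp4, a BMP ligand, measured 2329.4 and 1733.5 untreated and 1131.1 and 940.2 treated, a log2 change of -0.95 ± 0.19 (limma adjusted p = 0.0109). Inhba (0.61), Inhbb (0.48), which encode activin subunits, and Smad1 (0.60), a BMP SMAD, were higher on both treated arrays, and Fst (-0.68), which binds and blocks activin, was lower on both. None of these 4 passed. The second probe set of Inhbb measured 171 and 276.6 untreated and 216 and 250.2 treated, with overlapping groups and a log2 change of 0.08.

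Of transcripts that TGF-beta is known to induce, 31 of 38 were tested, 2 rose, 4 fell and 25 did not pass, with a median of -0.10. Ccn2, a matricellular protein, measured 1845.1 and 3028.3 untreated and 8095.8 and 8252.9 treated (log2 change 1.78 ± 0.17, limma adjusted p = 0.000177). Itga5, the fibronectin receptor subunit, measured 362.2 and 305.9 against 722.4 and 764.1 (1.10 ± 0.23, adjusted p = 0.0127). Its second probe set did not pass (0.79, limma adjusted p = 0.153), with ratios of 0.14 at date 1 and 1.44 at date 2. On the other side, Timp3, an inhibitor of matrix proteases, measured 8946.7 and 7984.5 against 6045.5 and 4359.1 (-0.72 ± 0.13, adjusted p = 0.00692), and all 4 of its probe sets fell. Bhlhe40, a transcription factor of the clock and hypoxia responses, fell by 0.95 on the log2 scale. Tpm1, an actin-binding tropomyosin, fell by 0.68 (limma adjusted p = 0.0317). Its other probe set was lower on both treated arrays but did not pass (-0.51, limma adjusted p = 0.0509). Lox, a collagen crosslinking enzyme named here after its values were seen, fell by 0.48 on the log2 scale.

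Other genes of this list did not pass. Klf10, an early SMAD target, measured 433.5 and 517 untreated and 560.7 and 565.6 treated, a log2 change of 0.24 that did not pass. Zeb2 (0.69), Sphk1 (0.65) and Snai1 (0.58) were higher on both treated arrays and Col1a2 (-0.59) lower on both, and none passed. Another probe set of Sphk1, too dim to be tested, was lower on both treated arrays, at 34.8 and 23 against 20.8 and 11.7. With 1 array left out, Zeb2 ranged from 0.32 to 1.06, Snai1 from 0.13 to 1.02, Col1a2 from -0.92 to -0.25 and Klf10 from 0.12 to 0.36, all extremes of the first 3 coming from leaving out a treated array. The contractile genes Acta2 (-0.02) and Tagln (-0.06) and the matrix genes Fn1 (-0.06) and Col1a1 (-0.04), named after their values were seen, had overlapping groups. Tgfbi had 4 probe sets: those with values on all arrays measured 1.1 to 2.7 and 25.8 to 39.9, below the limit for testing, and those with values at date 2 alone measured 93.3 untreated and 112.8 treated, and 56.6 and 46. Without untreated replicate 1 the log2 change of Bhlhe40 was -1.40 and that of Tpm1 -0.42, and without untreated replicate 2 they were -0.49 and -0.93. That of Timp3 was -0.48 without LGG replicate 2.

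Of 10 transcripts that TGF-beta is known to repress in epithelial cells, 6 were tested, 1 fell, 0 rose and the median was -0.11. Id1, an inhibitor of basic helix-loop-helix factors that BMPs induce, measured 2030.5 and 2190 untreated and 1082.4 and 455.8 treated. Its log2 change was -1.55 ± 0.27 (limma adjusted p = 0.00412), larger at date 2 (-2.20) than at date 1 (-0.89), and it was -2.15 without LGG replicate 1 and -0.95 without LGG replicate 2. Id2 (-0.33), Id3 (-0.33) and Ccna2 (0.22) did not pass.

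Among 15 genes tested of 18 that carry TGF-beta signals without SMADs, 1 fell and 0 rose, with a median of -0.02. Map2k4, a kinase upstream of JNK, measured 654 and 530.7 untreated and 344.9 and 290.5 treated. Its log2 change was -0.85 ± 0.23 (limma adjusted p = 0.0452), and its second probe set also fell (-1.02, adjusted p = 0.0201). Map3k7, the kinase TAK1, measured 850.3 and 831 against 448.6 and 546.4 and did not pass (-0.73, adjusted p = 0.0709). Sos1 (0.58), Traf6 (0.34) and Pard6a (0.33) were higher on both treated arrays without passing.

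**Figure D4:**
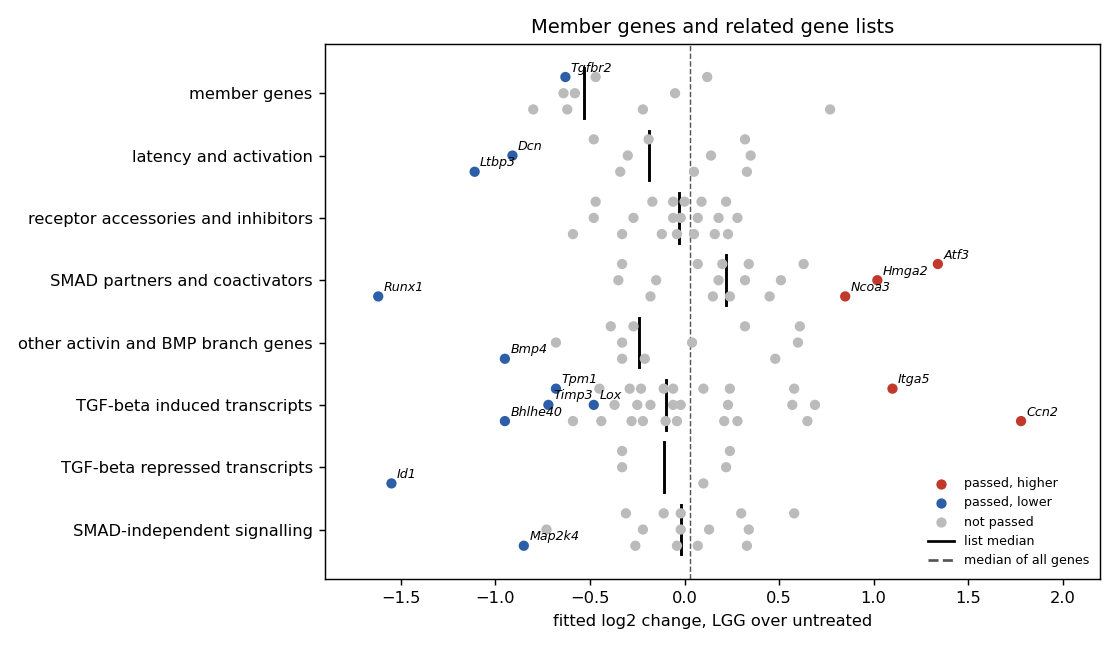
Fitted log2 change of LGG over untreated for each tested gene of the 10-gene set and of the 7 related lists, with red and blue points for genes that passed upward and downward, grey points for those that did not, black bars for list medians and a dashed line for the median of all genes. Points are spread vertically only for legibility, and the bar of the 10-gene set stands at -0.53 while those of the other lists lie between -0.24 and 0.22. The genes and lists were chosen with earlier results of these data known, and the difference between bars was not tested.

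Over these 7 lists, 15 genes passed, 5 upward and 10 downward, where 3.01% of all genes tested rose and 3.50% fell. The number tested is given with each list above, and some genes belong to several lists. Whether the lists differ from these shares was not tested. With no date block 3 of the 15 passed (Ccn2, Dcn and Runx1), and with all dim probe sets included 0 did. It was 9 with median scaling and 7 without the intensity trend. In fits without the block it was 0 with either untreated array left out, 9 without LGG replicate 1 and 7 without LGG replicate 2.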

How the data were processed

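Per the labels, total RNA of YAMC cells was extracted with Trizol, purified by a Qiagen kit and hybridised to mouse 430A arrays. Linear intensity values, 1 column per array, are what the authors deposited. Software, scaling and filters are not given in the sources used here, and neither are detection calls. At date 1 there was no value for 6307 of the 22690 probe sets. Groups and dates came from the array titles. To see whether dates pair the arrays, the difference between dates was compared, across probe sets, between the untreated and the treated pair (correlation 0.27).

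After 64 control probe sets were set aside, 16319 were complete across arrays, and of these 10335 averaged 20% or more of the trimmed mean (2% trimmed at each end) and were tested. The pseudocount was 25.2, 5% of the trimmed mean, so folds of dim genes are understated. Of all probe sets, 20393 had 1 symbol, 691 several and 1606 none. The fits (lmFit, then eBayes with intensity trend) ran in limma 3.58.1 under R 4.3.3 and were tested on simulated data. Figures used matplotlib 3.10.9.

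The genes and lists were chosen with earlier results of these data known. Named genes are every member, of each list up to 5 that passed and up to 4 others with the largest change of 1 sign at both dates, with Ccn2, Tgfbi, Smad7, Skil and Klf10 always. Alternatives covered the block, pseudocount, filter, scaling, trend, averaging of probe sets and each array left out.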

Additional observations from a re-analysis of the deposited data

Results flagged for a closer look

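In 3 tested probe sets of the set the treated array was at least 1.2-fold below the untreated array at 1 date and at least 1.2-fold above it at the other, a difference that was not tested, with 1 array per group and date. The log2 ratio at date 2 minus that at date 1 was 1.49 for Tgfbr1 1420893_a_at, 1.58 for Tgfbr2 1425444_a_at and -1.29 for Pmepa1 1422705_at. The brightest probe sets of these genes had the same sign at both dates.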

How the results depend on the processing

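Over all genes, 24 rose and 37 fell with no replicate block (the date), 116 and 131 without the intensity trend, 383 and 430 with probe sets averaged, and 0 and 0 of 10782 with no filter (limma, 1524 at an unadjusted p under 0.05). With median scaling 156 fell. With 1 array left out, in fits without the block, 0 to 200 rose and 0 to 230 fell, the 0 being without either untreated array (484 and 533 at an unadjusted p under 0.05). Of the 10 genes, 1 rose (Tgfb1) and 2 fell (Tgfb3 and Smad3) with probe sets averaged. The number that fell was 0 with no block, no filter, the filter at 50%, quantile normalization, median scaling or no trend, and 0 to 1 with an array left out, the 1 being Tgfbr3. Changes of sign touched values that had not passed. Leaving out arrays gave -0.29 to 0.18 for Tgfb2 (1450923_at -1.30 to 0.02), -0.45 to 0.00 for Tgfbr1 (1420893_a_at -1.12 to 0.38), -0.67 to 0.66 for Tgfbr2 1425444_a_at, -0.12 to 0.22 for Smad4 1422485_at, -0.98 to 0.69 for Pmepa1 1422705_at, -0.07 to 0.73 for Ltbp1, -0.04 to 0.60 for Smad7, -0.12 to 0.59 for Skil, -0.15 to 0.55 for Med15, -0.85 to 0.20 for Id2 and -0.38 to 0.27 for Tagln. Tgfbr2 1425444_a_at was 0.01 with a pseudocount at 20%, quantile normalization or median scaling. Smad3 was too dim for the filter at 50%. The cause was not tested. Of 222 log2 changes of the 10 genes and their probe sets under the alternatives, 13 changed sign, 21 lost a call, 4 gained one and 184 kept sign and side of the threshold. Dim probe sets have no detection calls here, so no bound against background can be given.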

Other observations

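Some probe sets of the related lists had values at date 2 alone, 1 untreated and 1 treated array, with no replicate. Col3a1, a fibrillar collagen gene, measured 9118 untreated and 6889.5 treated with 1 probe set and 2799 and 1272 with another. Vasn, whose product binds TGF-beta, measured 902.6 and 768.2 with 1 and 726.1 and 332.3 with the other. Ltbp4, a matrix anchor of latent TGF-beta, measured 381.9 and 264.6, and the repressor gene Tgif2 452.7 and 372.7. The coactivator gene Crebbp measured 196.7 and 31.9, and Acvr1b, an activin receptor that phosphorylates the same SMADs as Tgfbr1, 493.1 and 638.9. Another probe set of Acvr1b, with values on all arrays, was below the limit for testing, at 44.3 and 84.3 untreated and 78.1 and 85.9 treated.

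Among markers of other cell types, Cd68, a lysosomal protein of macrophages, rose (log2 change 1.06 ± 0.27, limma adjusted p = 0.0313) while the leukocyte marker Ptprc measured 15.4 to 37.2. Of the other macrophage markers, Cd14 had a log2 change of 0.01, Adgre1 was dim with overlapping groups, and Lyz2, also dim, measured 116.7 and 146.9 untreated and 98 and 14.7 treated. Kdr, a VEGF receptor of endothelial cells, rose too (1.29 ± 0.25, limma adjusted p = 0.00916), while Cdh5 measured 41.6 to 64.7. Tek, Pecam1 and Emcn, all too dim to be tested, were lower on both treated arrays, Tek at 149.4 and 96.1 against 36.8 and 51.4 and Pecam1 at 48 and 34.1 against 12.1 and 21.3.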
